A study of Mus musculus with 6 samples.

Results

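The 10 genes described here make and load the major histocompatibility complex (MHC) class I molecule: H2-K1, H2-D1, H2-T23, B2m, Tap1, Tap2, Tapbp, Psmb8, Psmb9 and Nlrc5. They were chosen by symbol, and all 10 were found among the 32285 genes of the count matrices. Their unique molecular identifiers (UMIs, 1 per captured transcript) were counted in microglia, border macrophages and neutrophils of 6 single-cell libraries. The cells were CD45+/CD11b+ cells sorted from whole brains of 3 male C57BL/6J mice at postnatal day 89, dissociated by cold Dounce homogenization. Mouse 2 was processed with a cocktail of transcription and translation inhibitors (DNC-INHIB), and mice 1 and 3 without it (DNC-NONE). Every mouse gave 1 library with the 10x Genomics 3' V3.0 kit and 1 with the V3.1 kit, so each kit has 3 libraries from the same 3 mice. All 6 libraries share the strain, sex, age and cold dissociation, and no library from an intact or unsorted brain was compared.

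Class I molecules carry peptides from inside the cell to its surface, where CD8 T cells and natural killer cells read them. Peptides are cut by the proteasome, whose subunits Psmb8 and Psmb9 are the inducible forms found in the immunoproteasome. They are pumped into the endoplasmic reticulum by the transporter Tap1 and Tap2 and handed over by tapasin, the product of Tapbp, to a heavy chain paired with beta-2 microglobulin, the product of B2m. H2-K1 and H2-D1 are the classical heavy chains, and H2-T23 encodes the non-classical heavy chain Qa-1. Nlrc5 is the transcriptional activator of class I genes. Interferon raises most of these genes in many tissues, and microglia of the healthy brain are known for a low basal level.

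Of the 10 genes, 8 lie on chromosome 17 (build GRCm38, mm10), within 2116957 bases of the mouse MHC. Psmb9 (ENSMUSG00000096727, chr17:34181987-34187764, minus strand), Tap1 (ENSMUSG00000037321, chr17:34187553-34197225, plus), Psmb8 (ENSMUSG00000024338, chr17:34197721-34201454, plus) and Tap2 (ENSMUSG00000024339, chr17:34203527-34216321, plus) stand side by side in a block of 34335 bases. Psmb9 and Tap1 run head to head and share 212 bases on opposite strands. Tapbp (ENSMUSG00000024308) is at chr17:33915899-33929292 on the plus strand. The heavy chains are H2-K1 (ENSMUSG00000061232, chr17:33996017-34000347, minus), H2-D1 (ENSMUSG00000073411, chr17:35262730-35267499, plus) and H2-T23 (ENSMUSG00000067212, chr17:36029773-36032855, minus). B2m (ENSMUSG00000060802, chr2:122147686-122153083, plus) and Nlrc5 (ENSMUSG00000074151, chr8:94434356-94527272, plus) lie elsewhere. The heavy chains have near-identical relatives, and how reads shared between them were counted was not tested, so the split of UMIs among heavy chain genes is uncertain. Tapbp overlaps Zbtb22, and Nlrc5 overlaps Mir7072, on the same strand, and B2m, Psmb8, Tap2, Tapbp, Nlrc5 and H2-T23 overlap a gene on the other strand.

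Windows from 250 bases before to 50 bases after the start of the gene were available from RefSeq (GRCm38.p6) for 8 of the 10 genes, all but Tap2 and Nlrc5. Of these, 6 are printed because they show each of the motifs searched. The window of Psmb9 overlaps that of Tap1, and that of Tapbp held CCAAT alone. Capitals mark matches on either strand to GAAANNGAA (core of the interferon-stimulated response element), TTCNNNGAA (the STAT-binding GAS element), TGACGC (as in the X2 box of MHC promoters), TGACG (the shorter site contained in it) and CCAAT (the Y box, which reads ATTGG on the other strand).
H2-K1, chr17:34000284-34000583, minus strand: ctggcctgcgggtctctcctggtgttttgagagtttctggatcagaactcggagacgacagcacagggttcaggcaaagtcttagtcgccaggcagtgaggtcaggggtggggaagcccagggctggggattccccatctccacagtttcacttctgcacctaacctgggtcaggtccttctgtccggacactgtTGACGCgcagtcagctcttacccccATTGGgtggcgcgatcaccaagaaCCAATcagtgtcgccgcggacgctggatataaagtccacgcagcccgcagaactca
H2-D1, chr17:35262844-35263143, plus strand: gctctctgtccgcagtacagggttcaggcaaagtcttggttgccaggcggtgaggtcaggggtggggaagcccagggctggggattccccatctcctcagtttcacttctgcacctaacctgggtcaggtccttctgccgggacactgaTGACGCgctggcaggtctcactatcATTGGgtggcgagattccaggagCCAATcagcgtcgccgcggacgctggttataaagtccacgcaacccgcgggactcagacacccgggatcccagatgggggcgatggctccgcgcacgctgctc
B2m, chr2:122147437-122147736, plus strand: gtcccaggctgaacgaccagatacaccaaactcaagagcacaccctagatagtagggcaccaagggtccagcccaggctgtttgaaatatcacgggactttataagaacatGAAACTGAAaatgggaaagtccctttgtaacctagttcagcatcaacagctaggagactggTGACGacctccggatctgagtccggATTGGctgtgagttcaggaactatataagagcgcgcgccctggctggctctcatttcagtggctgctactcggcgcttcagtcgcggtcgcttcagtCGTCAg
H2-T23, chr17:36032652-36032951, minus strand: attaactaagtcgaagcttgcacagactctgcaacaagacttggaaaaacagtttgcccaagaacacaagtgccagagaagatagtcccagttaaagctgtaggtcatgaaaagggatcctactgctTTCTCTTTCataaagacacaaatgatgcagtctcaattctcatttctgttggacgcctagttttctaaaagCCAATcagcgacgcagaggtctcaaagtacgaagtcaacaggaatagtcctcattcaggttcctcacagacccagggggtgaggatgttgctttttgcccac
Psmb8, chr17:34197945-34198244, plus strand: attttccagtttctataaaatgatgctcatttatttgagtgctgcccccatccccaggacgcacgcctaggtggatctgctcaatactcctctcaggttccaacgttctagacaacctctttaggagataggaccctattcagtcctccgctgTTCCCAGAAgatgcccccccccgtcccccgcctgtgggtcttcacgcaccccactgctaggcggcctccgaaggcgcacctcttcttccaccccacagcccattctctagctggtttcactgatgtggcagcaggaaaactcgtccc
Tap1, chr17:34187306-34187605, plus strand (overlapping the window of Psmb9): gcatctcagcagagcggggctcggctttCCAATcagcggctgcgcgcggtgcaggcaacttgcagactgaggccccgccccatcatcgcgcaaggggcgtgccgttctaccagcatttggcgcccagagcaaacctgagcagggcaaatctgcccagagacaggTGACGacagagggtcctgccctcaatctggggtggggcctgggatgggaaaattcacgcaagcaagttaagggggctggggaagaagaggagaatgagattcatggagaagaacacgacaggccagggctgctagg
GAAANNGAA was found in 2 of the 8 windows, those of B2m and H2-T23, and in 8.56% of all 32851 RefSeq windows of this length. The match began 139 bases before the start in B2m and 123 bases before it in H2-T23. TTCNNNGAA was found in Psmb8 alone (8.30% of all windows). TGACGC was found in H2-K1 and H2-D1 (7.40% of all windows), and the shorter TGACG in 5 of the 8 windows (20.8%): H2-K1, H2-D1, B2m, Tap1 and Psmb9. CCAAT was found in 7 of the 8 windows, Psmb8 being the exception, and in 37.4% of all windows. These matches describe letters in the windows and were not tested as binding sites. GAAANNGAA is a fixed pattern, and windows without it were not searched for other forms of the interferon-stimulated response element.

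Of 29412 deposited barcodes, 19725 passed the filter used here: 1000 to 4000 genes, no more than 12000 UMIs and mitochondrial genes below or at 15% of them. The V3.0 library of mouse 3 stood apart, with 21.5% of its barcodes passing against 70.0% to 76.8% in the other 5 libraries. Any pair of libraries shared 1 to 5 passing barcodes, at most 0.316% of the smaller library. Gates on marker UMIs gave 18981 microglia (3 or more UMIs over at least 2 of P2ry12, Tmem119, Siglech, Sall1, Fcrls and Gpr34), 59 border macrophages (the same minimum over Mrc1, Pf4, Cd163, Lyve1, F13a1, Cbr2 and Ms4a7) and 272 neutrophils (20 or more UMIs of S100a8 and S100a9 plus a UMI of another neutrophil gene), each with a cap on the markers of the others. Microglia with at least 1 UMI of both Ifit3 and Isg15, a pair of interferon-induced genes, are called interferon-positive: 192 cells, of which 49 came from mouse 1, 91 from mouse 2 and 52 from mouse 3. They were 0.712% to 1.68% of the microglia of a library, and the remaining 18789 are the other microglia. Against markers that the gates did not use, all 12 listed interferon genes outside the gate had UMIs in interferon-positive microglia, and their summed level per mouse was 4134 to 5953 counts per 1000000 UMIs of the class (CPM) against 325 to 329 CPM in other microglia. The microglial gate markers summed to 7468 to 9421 CPM there against 10664 to 11206 CPM. Of the border macrophage markers 6 of 7 and of the lymphocyte markers 6 of 6 were at 0 in interferon-positive microglia, and S100a8 plus S100a9 summed to 617 to 995 CPM against 668 to 1003 CPM. The gates capped these 3 marker sets in microglia, so their levels are no independent check. Zeros are also easily met, with 749198 UMIs in the class and at most 5.88 CPM of the border macrophage markers in other microglia. The 4 monocyte markers summed to 15.1 to 75.7 CPM against at most 19.1 CPM. Levels below are CPM, summed over the cells of a mouse and both kits, as mean ± SD over n = 3 mice unless stated. A gene is called higher or lower at an adjusted p under 0.05 with a log2 fold change beyond 0.58, from edgeR's quasi-likelihood test over all genes with the mouse as a block.

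In other microglia, the 10 genes together took 0.330% ± 0.00833 of all UMIs, and B2m made up 45.1% ± 1.94 of that sum. B2m stood at 1487 ± 102 CPM and was seen in 96.9% of cells. H2-D1 was at 627 ± 26.6 CPM and H2-K1 at 408 ± 4.31 CPM, and H2-T23 at 228 ± 3.57 CPM. The loading genes were lower, with Psmb8 at 193 ± 0.681 CPM, Tapbp at 152 ± 4.53 CPM, Psmb9 at 87.6 ± 7.32 CPM, Tap2 at 78.7 to 80.9 CPM over the mice and Tap1 at 33.4 ± 4.32 CPM. Nlrc5 was nearly absent, with 135 UMIs in all 18789 cells (1.99 ± 0.459 CPM). Counts are of 3' ends, 1 per molecule, and are not scaled by gene length. In this order each gene's range over mice lay clear of its neighbour's except for Psmb9 (79.4 to 93.5 CPM) and Tap2 (78.7 to 80.9 CPM), which overlapped.

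The ratio of variance to mean among single microglia differed between genes. After each cell was thinned to 2000 UMIs, the variance of H2-D1 counts over other microglia was 1.69 to 2.18 times its mean in the 6 libraries, where sampling of a uniform level gives a value near 1. For B2m it was 1.53 to 1.60 times and for H2-K1 1.23 to 1.57 times the mean. H2-T23 (1.04 to 1.18 times) and Psmb8 (1.01 to 1.12 times) were slightly above 1 in all 6 libraries, and the other 5 genes lay between 0.962 and 1.06 times. At a given relative spread this ratio comes closer to 1 as the mean count falls. The mean was 2.57 to 3.30 UMIs per cell for B2m, 1.10 to 1.44 for H2-D1 and 0.0559 to 0.0814 for Tap1. The ratios therefore do not rank the genes by relative spread, and no test of them was run.

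Interferon-positive microglia gave more of their UMIs to the class I genes than other microglia did, in all 3 mice. The 10 genes together took 0.598% ± 0.0564 of their UMIs against 0.330% ± 0.00833. All 9 members that passed the low-count filter were called higher and none lower, against a background of 3.30% of 6972 genes called higher and 0.330% called lower. The median log2 fold change of the 9 members was 0.93, that of all genes -0.04. Ifit3 and Isg15 chose these cells and are not counted.

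Of the 3 heavy chains among the members, H2-T23 had the largest fold change. It was at 586, 550 and 712 CPM in interferon-positive microglia of mice 1, 2 and 3, against 225, 228 and 232 CPM in other microglia (log2 fold change 1.45, SE 0.11, adjusted p = 5.34e-35). H2-D1 was at 1028, 1222 and 1414 CPM against 615, 657 and 608 CPM (0.99, SE 0.10, adjusted p = 3.07e-19). H2-K1 was at 776, 656 and 773 CPM against 413, 407 and 404 CPM (0.86, SE 0.11, adjusted p = 2.17e-13). In each of these the lowest interferon-positive mouse lay above the highest value of other microglia. B2m, the shared light chain, was at 2448, 2120 and 2580 CPM against 1480, 1390 and 1592 CPM (0.71, SE 0.10, adjusted p = 3.55e-11). The groups did not overlap, and the rise of B2m was smaller than that of each heavy chain, though the difference between genes was not tested.

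The transporter and tapasin split into a large and a small change. Tap1 was at 103, 70.1 and 111 CPM against 37.8, 29.2 and 33.2 CPM, on 20, 25 and 22 UMIs (1.49, SE 0.25, adjusted p = 1.33e-07). Its partner Tap2 was at 159, 135 and 131 CPM against 80.9, 80.3 and 78.7 CPM (0.85, SE 0.19, adjusted p = 0.000223). Tapbp was at 237, 213 and 222 CPM against 156, 153 and 147 CPM (0.58, SE 0.15, adjusted p = 0.00297), higher in all 3 mice. Its fold change sat on the threshold and fell short of it under 7 of the 14 alternatives run, at 0.50 to 0.57, including those without mouse 1 or without mouse 3.

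Both immunoproteasome subunits rose by a like amount. Psmb8 was at 345, 367 and 379 CPM against 193, 192 and 192 CPM (0.95, SE 0.13, adjusted p = 1.04e-11). Psmb9 was at 139, 137 and 217 CPM against 89.9, 79.4 and 93.5 CPM (0.93, SE 0.18, adjusted p = 6.25e-06). Neither overlapped between the classes, and mouse 3 was set apart by its Psmb9 level. Psmb10, the third inducible subunit, was at 150 ± 9.66 CPM against 107 ± 6.41 and was not called.

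Nlrc5, the class I activator, had too few UMIs to pass the low-count filter and is not among the 9 members tested. It had 4, 10 and 12 UMIs in interferon-positive microglia of the 3 mice, or 20.6, 28.0 and 60.6 CPM, against 2.52, 1.76 and 1.69 CPM in other microglia. A UMI of it was seen in 23 of 192 interferon-positive cells (4% to 20.5% of cells by library) and in 131 of 18789 other microglia (0.442% to 1.02% by library); median depth was 3592 UMIs in microglia with both gate genes and 3498 in those with neither. Thinned to 2000 UMIs the shares were 8.42% and 0.388%. Every mouse lay above the range of other microglia, and a fit without the filter gave a log2 fold change of 4.12 (SE 0.56, adjusted p = 4.53e-11).

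**Figure D1:**
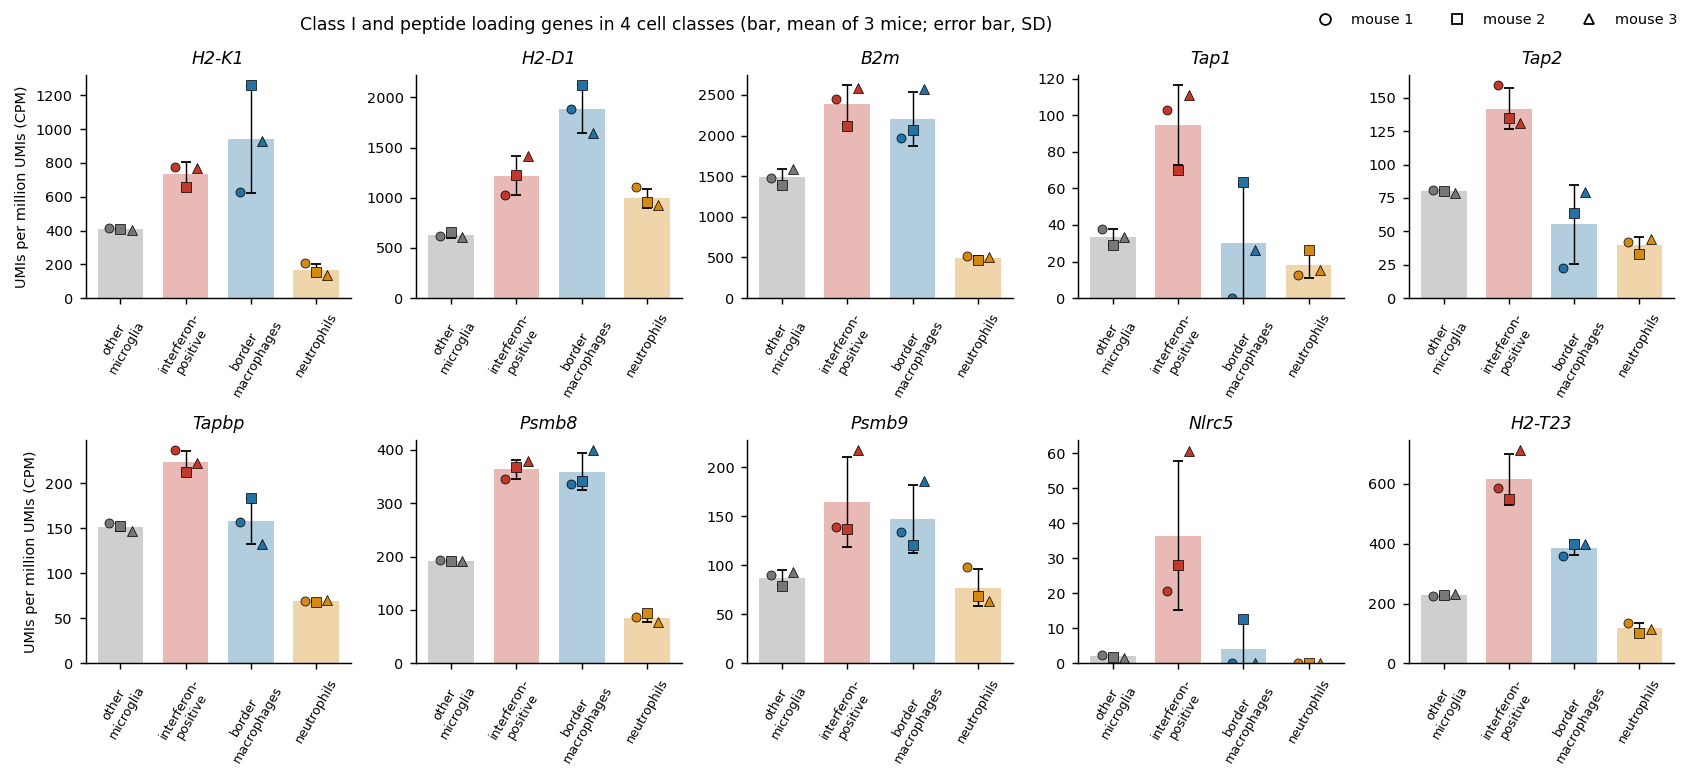
CPM of each gene (y axis) in other microglia, interferon-positive microglia, border macrophages and neutrophils (x axis), with 1 point per mouse, bars for the mean and error bars for the SD of 3 mice. In interferon-positive microglia all 10 genes lie above other microglia in every mouse, and in neutrophils H2-D1 is the 1 gene whose 3 mice (927 to 1105 CPM) all lie above other microglia.

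The rest of the pathway moved in part. Of the other heavy chains and class I-like genes, 7 of 11 were tested and 6 were called higher, led by H2-Q7 (log2 fold change 2.34, SE 0.43), H2-Q6 (2.32, SE 0.56), H2-T24 (2.07, SE 0.31) and H2-T22 (1.53, SE 0.27). The proteasome activator subunits Psme1 (0.96, SE 0.12) and Psme2 (1.04, SE 0.15) were called among 6 further proteasome genes, and the constitutive subunits Psmb5, Psmb6 and Psmb7 were not. None of the 6 other loading genes (Calr, Canx, Pdia3, Tapbpl, Erap1 and Hspa5) was called by edgeR or DESeq2, with 3 at an unadjusted p under 0.05 in edgeR and 1 in DESeq2. Of 12 regulators tested, 4 were called higher, among them Stat2 (3.14, SE 0.23), Irf9 (1.16, SE 0.20) and Irf1 (1.05, SE 0.24). Stat2 and Irf9 are parts of the factor that binds interferon response elements. All 12 listed interferon genes outside the gate were called higher, led by Ifit1 (7.18, SE 0.30), Rsad2 (7.13, SE 0.40), Ifit2 (6.72, SE 0.29) and Oasl2 (5.98, SE 0.28).

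Cells with only 1 of the gate genes were intermediate for some members and not for others. Among microglia, 17780 cells had neither gene, 660 had Isg15 alone, 349 had Ifit3 alone and 192 had both. H2-K1 was at 402 ± 5.68 CPM with neither, 463 ± 54.3 with Isg15 alone, 594 ± 45.0 with Ifit3 alone and 735 ± 68.4 with both. H2-D1 followed the same order, at 614 ± 18.4, 737 ± 127, 1033 ± 257 and 1222 ± 193 CPM, and so did B2m, at 1471 ± 103, 1667 ± 81.7, 1968 ± 196 and 2382 ± 237 CPM. With Ifit3 alone all mice lay above all mice with neither gene for these 3 genes and also for H2-T23, Tap1, Psmb9 and Nlrc5. The share of all genes that separate in this way was not computed. Nlrc5 rested on 5, 2 and 1 UMIs with Ifit3 alone. For H2-T23 the lowest mouse with Ifit3 alone (232 CPM) was close to the highest with neither gene (229 CPM). Tap1 was at 32.7 ± 3.96 CPM with neither, 53.3 ± 14.9 with Ifit3 alone and 94.7 ± 21.7 with both. For Tap2, Tapbp and Psmb8 the mice with Ifit3 alone overlapped those with neither gene. Tap2 was at 79.9 ± 0.977 CPM with neither, 80.5 ± 12.7 with Ifit3 alone and 142 ± 15.4 with both. Psmb8 was at 191 ± 0.544, 205 ± 35.2 and 364 ± 17.4 CPM in the same classes, and H2-T23 at 226 ± 3.39, 286 ± 47.4 and 616 ± 85.2 CPM. A single UMI of a gate gene can miss or misplace a cell at this depth, so these classes are mixtures, and no test was run between them.

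**Figure D2:**
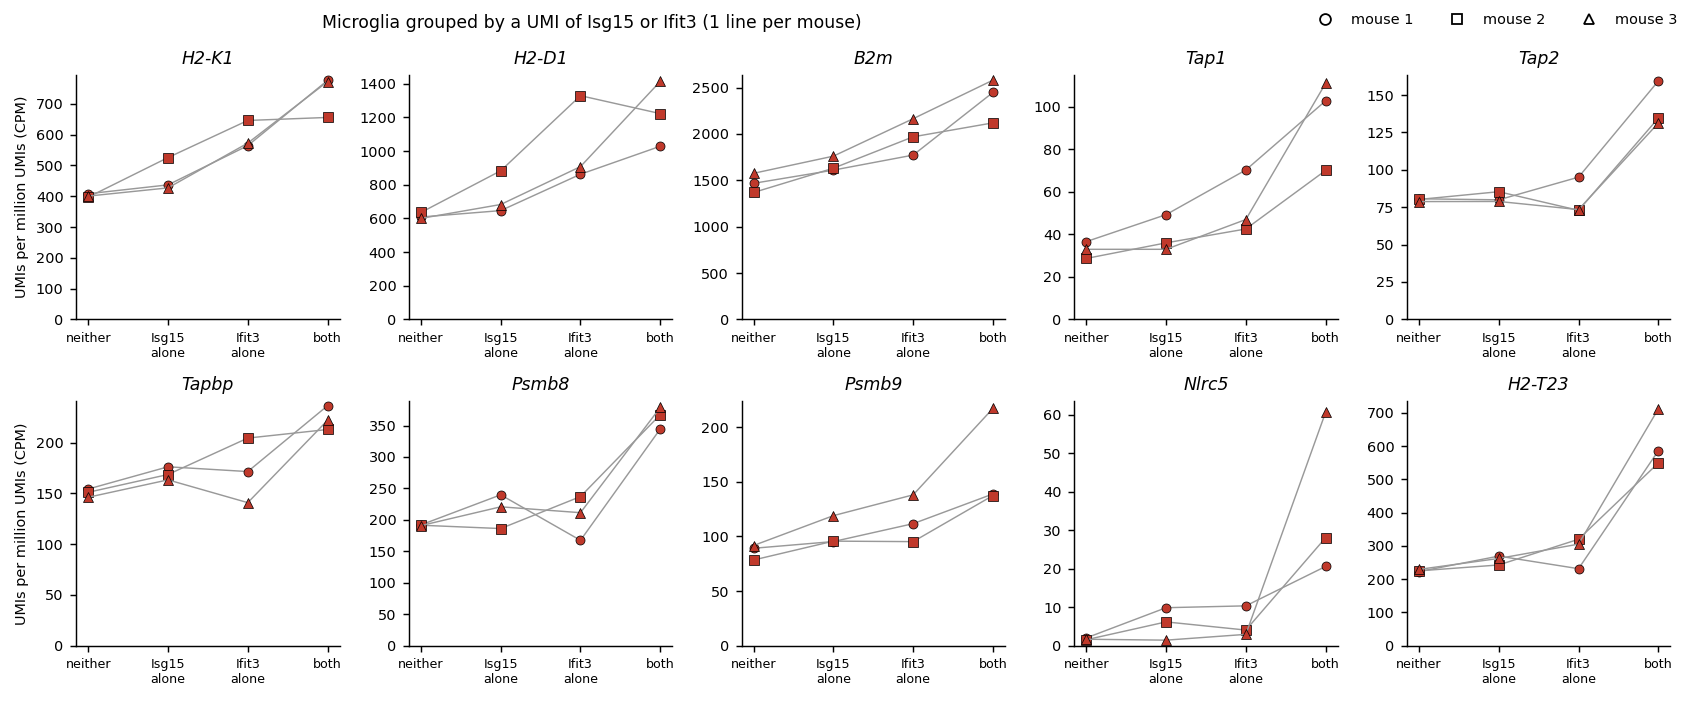
CPM of each gene (y axis) in microglia with a UMI of neither gate gene, of Isg15 alone, of Ifit3 alone or of both (x axis), 1 line per mouse. With Ifit3 alone, all mice lie above the first class for H2-K1, H2-D1, B2m, H2-T23, Tap1, Psmb9 and Nlrc5, whereas for Tap2, Tapbp and Psmb8 they overlap it. Nlrc5 rests on 5, 2 and 1 UMIs with Ifit3 alone, and the share of all genes that separate in this way was not computed.

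The change in interferon-positive microglia was seen with both kits. The change was taken within a library, as the log2 ratio of CPM with a pseudocount of 1 CPM. By this ratio 9 of the 10 genes were higher in interferon-positive cells in 6 of 6 libraries. The exception was Tap1 in the V3.0 library of mouse 3 (-0.09, from 8 cells). The same count over all genes was not made, and Nlrc5 had only 4 UMIs in both libraries of mouse 1 together. The ratio of H2-T23 was 1.43 ± 0.23 with V3.1 and 0.96 ± 0.40 with V3.0 (n = 3 libraries each). Tap2 was at 1.08 ± 0.40 with V3.1 and 0.37 ± 0.11 with V3.0, and Tap1 at 1.67 ± 0.31 and 0.77 ± 0.75. For Tap1, Tap2 and Tapbp the libraries of the kits did not overlap, narrowly so for Tap1 (lowest V3.1 library 1.31, highest V3.0 library 1.29). The share of all genes whose ratio separates the kits was not computed. Without overlap p is 0.1, the smallest that an exact two-sided permutation test of 3 against 3 allows (adjusted p = 0.333 over 10 genes). No member passed the test of a difference between kits, and this design cannot reach p of 0.05.

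Border macrophages, which line the meninges and vessels, had more H2-D1 and H2-K1 than other microglia in all 3 mice, on 59 cells, of which 38 came from mouse 2. The 10 genes took 0.616% ± 0.0603 of their UMIs. Of 9 members tested, 6 were called higher than in other microglia and none lower, against 9.62% of 6943 genes called higher and 8.07% lower. The median log2 fold change of the members was 1.01, that of all genes -0.14. In border macrophages the markers of their own gate summed to 3522 to 4343 CPM over the mice, and the microglial gate markers to 744 to 1366 CPM. The monocyte markers summed to 177 to 372 CPM there, with Ly6c2 and Plac8 at 0, against at most 19.1 CPM in other microglia. Whether monocytes or other cells are mixed into this class was not tested.

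H2-D1 was at 1881, 2122 and 1647 CPM in border macrophages of mice 1, 2 and 3, against 615, 657 and 608 CPM in other microglia (log2 fold change 1.95, SE 0.13, adjusted p = 1.17e-51). H2-K1 was at 627, 1261 and 930 CPM against 413, 407 and 404 CPM (1.69, SE 0.14, adjusted p = 4.64e-31). B2m was at 1970, 2065 and 2578 CPM (0.87, SE 0.12), and H2-T23 at 358, 399 and 399 CPM (1.13, SE 0.20). None of these overlapped with other microglia, although H2-K1 spread over a wide range of mice.

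The immunoproteasome subunits were higher too, and the transporter was not called. Psmb8 was at 336, 342 and 399 CPM (1.19, SE 0.21, adjusted p = 1.19e-07) and Psmb9 at 134, 120 and 186 CPM on 6, 19 and 7 UMIs (1.01, SE 0.31, adjusted p = 0.00849). Psmb9 lost its call without mouse 2 (0.98) or without mouse 3 (0.94). Tap1 had 0, 10 and 1 UMIs in the 3 mice and Tap2 had 1, 10 and 3, so neither is measured well in this class (0.83, SE 0.53, and -0.11, SE 0.41). Without mouse 2 the value of Tap1 was -1.36. Tapbp was at 158 ± 25.4 CPM (0.50, SE 0.26, adjusted p = 0.207), and Nlrc5 had 2 UMIs, both in mouse 2, or 8.33 CPM over the class with an exact Poisson interval of 1.01 to 30.1 CPM.

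Without mouse 2 the number of genes called between border macrophages and other microglia was 705 in place of 1228, and 5 members were called. TMM scaling, used in the fit, moves the median log2 fold change of all genes up by 0.350 relative to library totals. With library totals alone 4 members were called, B2m (0.55) and Psmb9 (0.67) losing their calls, and 28.9% of all genes called were higher in place of 54.4%. The other listed genes that were called higher were H2-Q6 (3.01, SE 0.87) and H2-M3 (0.98, SE 0.34) among the other heavy chains, Psme1 (1.02, SE 0.20) among proteasome genes, and 5 regulators, among them Ciita (9.57, SE 0.67), the class II transactivator, with Stat2 (1.78, SE 0.53) and Irf1 (1.55, SE 0.38). Of the 6 other loading genes Pdia3 was lower (-0.85, SE 0.18) and the other 5 were not called. All 12 interferon genes were called higher, with Ifitm3 (5.24, SE 0.18) and Oasl2 (5.27, SE 0.47) among the largest. Some calls rest on few UMIs: Rsad2 had 7, Oasl2 33 and the regulator Stat2 14, each with a mouse at 0 CPM. Other listed interferon genes also had a mouse at 0. Summed, the 12 genes stood at 2152 to 3839 CPM over the mice, against 325 to 329 CPM in other microglia. The class that is high in class I genes was thus also high in this sum, and its part in the result was not tested. Cd74, the class II invariant chain, stood at 26278 ± 2536 CPM. Ifit3 was at 52.9 ± 57.4 CPM and Isg15 at 43.4 ± 56.8 CPM in this class, both with a mouse at 0.

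Neutrophils showed a class I profile of another make-up, and their values depend on the scale. S100a8 and S100a9, which gate these cells, summed to 390014 to 402081 CPM, so every other gene is low on the CPM scale. The 11 other neutrophil genes of the gate summed to 103941 to 105934 CPM. The 4 monocyte markers, on which this gate set no cap, summed to 2584 to 4085 CPM, with Ccr2 at 0. Whether monocytes are mixed into the neutrophil class was not tested. In CPM, all members but H2-D1 and Psmb9 lay below other microglia in every mouse. Nlrc5 had no UMI in neutrophils, and its level in other microglia (1.69 to 2.52 CPM) could not be told from the neutrophil limit given below. B2m was at 513, 470 and 509 CPM against 1480, 1390 and 1592, and H2-K1 at 207, 152 and 137 CPM against 413, 407 and 404. Here TMM scaling shifts the median log2 fold change of all genes by 1.52 relative to library totals, from -1.80 to -0.28. With it 2 of 9 members were called higher and none lower, against 29.9% of 6943 genes called higher and 39.5% lower, so the count is no more than the background share. With library totals alone, an alternative chosen after seeing the data, 1 member was called higher and 7 lower, and of all genes called 13.4% were higher in place of 43.1%.

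H2-D1 was higher in neutrophils on both scales. It was at 1105, 960 and 927 CPM against 615, 657 and 608 CPM in other microglia, with no overlap (log2 fold change 2.15, SE 0.10, adjusted p = 1.33e-102). Psmb9 was called higher with TMM scaling (1.32, SE 0.17, adjusted p = 1.00e-13) and stood at 98.6, 68.3 and 63.9 CPM against 89.9, 79.4 and 93.5 CPM, which overlap. Relative to the median of all genes, H2-D1 and Psmb9 were thus the members that stood furthest up, and B2m (-0.10, SE 0.11) and H2-K1 (0.19, SE 0.13) were not called. H2-T23 (0.54, SE 0.14), Tap1 (0.59, SE 0.33), Tap2 (0.46, SE 0.22), Tapbp (0.34, SE 0.17) and Psmb8 (0.32, SE 0.15) were not called either, and all 5 turn negative with library totals.

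The proportions among the members do not depend on the scale. H2-D1 made up 48.2% ± 0.740 of the UMIs of the 10 genes in neutrophils, against 19.0% ± 1.27 in other microglia, 20.4% ± 2.47 in interferon-positive microglia and 30.7% ± 4.37 in border macrophages. B2m made up 24.1% ± 1.71 in neutrophils and 45.1% ± 1.94 in other microglia. There were 5.35 to 6.79 UMIs of H2-D1 for each of H2-K1 in neutrophils of the 3 mice, 1.49 to 1.62 in other microglia, 1.32 to 1.86 in interferon-positive microglia and 1.68 to 3.00 in border macrophages. The neutrophil range lay apart from that of all other classes.

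Nlrc5 had no UMI in neutrophils (0 of 272 cells and 0 of 1663609 UMIs; a count of 3, the most that a count of 0 is taken to allow, would be 1.10% of cells and 1.80 CPM over the class). Interferon-positive microglia were at 34.7 CPM over all their UMIs (exact 95% Poisson interval 22.7 to 50.8 CPM) and other microglia at 1.99 CPM, which could not be told from the neutrophil limit. These limits cover counting error only, and neutrophil CPM are low for all genes. Other members of the pathway were lower in neutrophils: 5 of the 6 other loading genes were called lower, led by Calr (-2.39, SE 0.18), Canx (-2.15, SE 0.17), Tapbpl (-2.15, SE 0.55) and Pdia3 (-1.88, SE 0.14), as was Psmb10 (-1.48, SE 0.28). Psme2 (0.97, SE 0.16), Psme1 (0.92, SE 0.13) and Psmb5 (0.72, SE 0.16) were called higher with TMM scaling, but in CPM all 3 were lower in every neutrophil sum: Psme2 at 85.4 ± 10.3 against 122 ± 1.35, Psme1 at 145 ± 14.9 against 212 ± 8.41 and Psmb5 at 67.3 to 94.7 against 136 to 146 CPM. Of the other heavy chains, H2-Q10 was at 59.7 ± 14.3 CPM in neutrophils and 1.48 ± 0.119 CPM in other microglia (6.79, SE 0.40), H2-T22 was called higher with TMM scaling (0.82, SE 0.34) but stood at 18.5 ± 8.98 against 28.4 ± 3.25 CPM, and H2-M3 was called lower, with 1 UMI in all neutrophils against 72.4 ± 3.10 CPM in other microglia. Since heavy chains share sequence, H2-Q10 may have drawn reads from H2-D1 or given reads to it, which was not tested. Of 12 regulators 4 were called higher, among them Irf1 (1.26, SE 0.25, but 35.4 ± 5.90 against 41.4 ± 3.65 CPM), and 3 lower, among them Irf8 (-5.32, SE 0.28), a factor of macrophage identity, and Ifngr1 (-3.18, SE 0.16), a chain of the interferon gamma receptor. Of 12 interferon genes 9 were called higher, led by Rsad2 (6.65, SE 0.45), Ifitm3 (6.65, SE 0.11), Oasl2 (4.66, SE 0.34) and Irf7 (4.22, SE 0.43), and 1 lower.

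**Figure D3:**
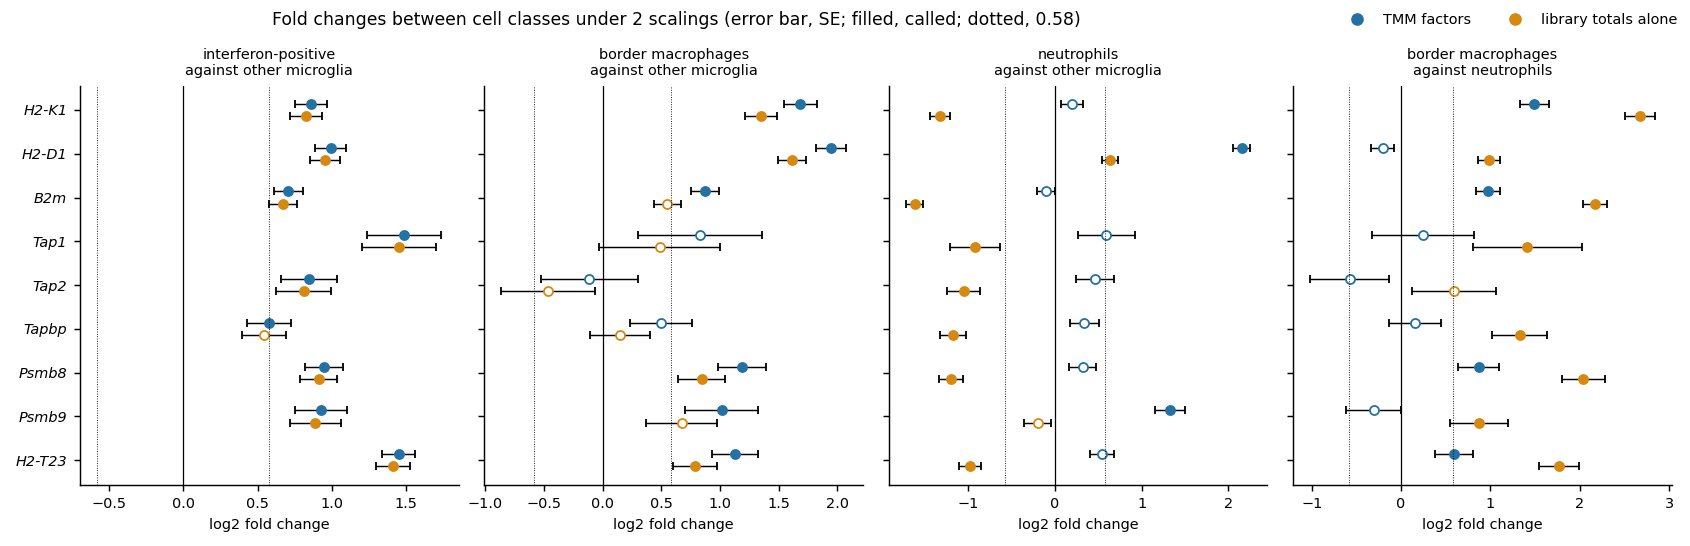
Log2 fold change of the 9 tested genes (x axis; error bar, SE) in each of 4 comparisons, with TMM factors and with library totals alone; filled points are called and dotted lines mark 0.58. The comparison of microglia hardly moves with the scaling, while in neutrophils 7 of 9 genes change sign and H2-D1 (2.15 with TMM factors) stays positive.

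Border macrophages compared with neutrophils directly had 4 of 9 members called higher and none lower, where 23.6% of 6943 genes were called higher and 23.6% lower. They were H2-K1 (1.49, SE 0.16), B2m (0.97, SE 0.13), Psmb8 (0.87, SE 0.23) and H2-T23 (0.59, SE 0.21), and H2-D1 was not called (-0.21, SE 0.13). H2-T23 lay at the threshold and lost its call in 8 of the 13 alternatives run, at 0.23 to 0.57. Without mouse 2, 2176 genes were called in place of 3275, with H2-K1 and B2m the members still called. With library totals alone 8 of 9 members were called higher, and 82.6% of all genes called were higher, where TMM scaling gives 1636 higher and 1639 lower. Of the 6 other loading genes 5 were higher, led by Tapbpl (2.99, SE 0.77), Calr (2.15, SE 0.27), Canx (1.86, SE 0.27) and Hspa5 (1.62, SE 0.21). Psmb10 was higher (2.05, SE 0.43) and Psmb5 lower with TMM scaling (-0.74, SE 0.32), although in CPM it was higher, at 117 ± 13.5 against 85.0 ± 15.3. Of the other heavy chains H2-M3 was higher, at 108 ± 52.0 CPM against 1 UMI in neutrophils, and H2-Q6 was at 22.4 to 53.1 CPM in border macrophages and 0 in neutrophils. Ciita was at 158 ± 40.5 CPM and 0, Irf8 was higher (4.78, SE 0.43), and Bst2 (5.34, SE 0.26) and Xaf1 (2.06, SE 0.55) were among 6 interferon genes called higher, with 1 lower.

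The kits were compared in all microglia, 3 libraries against 3, to ask whether the capture chemistry moves these genes. No member was called by edgeR or by DESeq2 (6 of 10 had an unadjusted p under 0.05 in each), where 1.51% of 12031 genes were called higher with V3.1 and 1.46% lower. By the adjusted p alone, 3 members differed: H2-T23 and Psmb8 were higher with V3.1 and H2-K1 was lower, against 6.28% of genes higher and 7.25% lower by that rule.

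H2-T23 was at 277, 292 and 247 CPM in the V3.1 libraries of mice 1, 2 and 3 and at 191, 181 and 184 CPM in their V3.0 libraries (log2 fold change 0.57, SE 0.07, adjusted p = 0.000753), just under the fold threshold. It passed that threshold without the V3.0 library of mouse 1 (0.59) or the V3.1 library of mouse 3 (0.63). Psmb8 was at 229, 220 and 201 CPM with V3.1 and at 169, 173 and 159 CPM with V3.0 (0.38, SE 0.07, adjusted p = 0.00493). H2-K1 went the other way, at 328, 355 and 404 CPM with V3.1 and 481, 457 and 429 CPM with V3.0 (-0.31, SE 0.08, adjusted p = 0.0256). The kits did not overlap for these 3 genes, nor for H2-D1, B2m, Tap1 and Tapbp, which makes 4 members higher and 3 lower with V3.1, where 14.5% of all genes were higher and 18.8% lower without overlap. With the mouse as a block, 543 genes were called in place of 358, and still no member. The classical heavy chain H2-K1 and the non-classical H2-T23, counted in the same cells, moved in opposite directions between kits, by less than the change in interferon-positive microglia for H2-T23 (1.45).

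**Figure D4:**
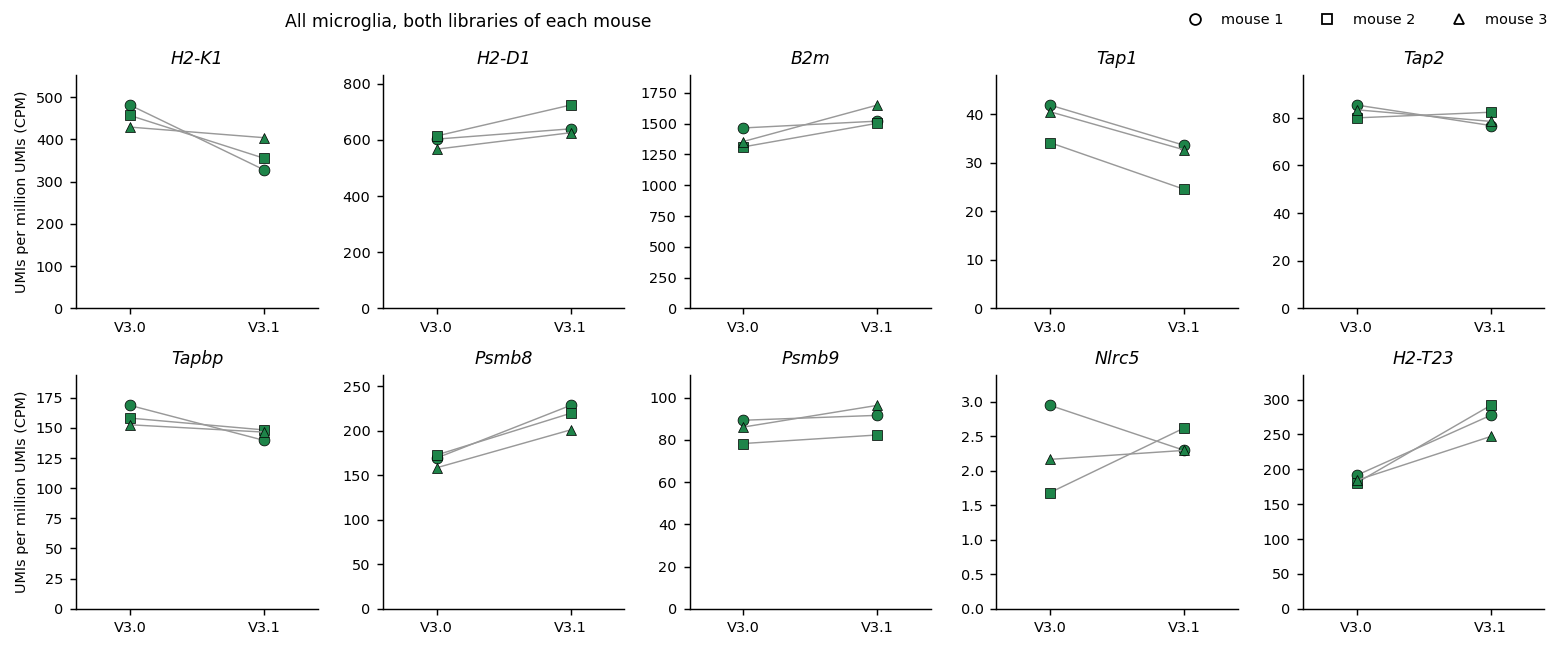
CPM of each gene in all microglia (y axis) for the V3.0 and the V3.1 library of each mouse (x axis), joined by a line. H2-T23 and Psmb8 rise and H2-K1 falls from V3.0 to V3.1 in all 3 mice.

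The share of microglia with a UMI followed the levels. Thinned to 2000 UMIs per cell, which keeps 18219 of 18981 microglia, 38.7% to 42.9% of microglia had a UMI of H2-T23 with V3.1 and 29.3% to 31.4% with V3.0 (59.0% ± 2.93 and 45.6% ± 3.12 without thinning). For H2-K1 the shares were 46.3% ± 4.05 with V3.1 and 54.7% ± 1.77 with V3.0, and for Psmb8 34.9% ± 1.63 and 28.1% ± 1.42. B2m was seen in 92.0% ± 1.20 and 89.6% ± 1.11 of microglia. H2-D1 was seen in 62.8% ± 1.72 with V3.1 and 59.8% ± 1.54 with V3.0, and Tap1 in 6.00% ± 0.470 and 7.23% ± 0.759. For H2-T23, H2-K1, Psmb8, B2m, H2-D1 and Tap1 the exact two-sided permutation test gave p = 0.1, the smallest it allows. The adjusted p by this test was 0.167 over 10 genes for each of them. The share of all genes that reach this p was not computed. Nlrc5 was seen in 0.475% ± 0.0294 of microglia with V3.1 and 0.499% ± 0.236 with V3.0 (exact permutation p = 0.9).

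The inhibitor cocktail was compared in all microglia, mouse 2 against mice 1 and 3, so a difference between treatments and a difference between mice cannot be told apart. The UMIs were summed per mouse here, so the only replicates behind the p-values and SE below are mice 1 and 3. The test shares the estimate of spread across all genes, so these values do not measure the spread of each member by itself. Psmb8 (195 and 194 CPM in mice 1 and 3) and B2m (1488 and 1602 CPM) have the same SE. With 1 treated mouse, the p-values and SE also do not measure the spread between treated animals. No member was called by edgeR (1 of 10 with an unadjusted p under 0.05) or by DESeq2 (0 of 10), where 0.402% of 13196 genes were called higher and 0.485% lower. The largest value was that of Tap1, at -0.27 (SE 0.11, adjusted p = 0.394), with -0.34 against mouse 1 alone and -0.19 against mouse 3 alone. H2-K1 (0.01, SE 0.10), Psmb8 (0.01, SE 0.10), H2-T23 (0.01, SE 0.10), Tap2 (0.02, SE 0.10) and Tapbp (0.03, SE 0.10) stood close to 0. H2-D1 was at 0.12 (SE 0.10), B2m at -0.13 (SE 0.10), Psmb9 at -0.19 (SE 0.10) and Nlrc5 at -0.21 (SE 0.33).

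Among 8091 genes with a mean of at least 10 CPM outside the members and the gates, the 5 whose log2 CPM was most like the mean standardized level of the members over the 12 sums of 3 mice and 4 classes were Ccl12 (Pearson r = 0.97), Parp12 (0.96), Rnase6 (0.95), Gm4951 (0.94) and Tor3a (0.94). Ccl12, a chemokine, was at 1716 ± 915 CPM in interferon-positive microglia, 90.3 ± 17.6 in other microglia, 798 ± 568 in border macrophages and 3.84 ± 3.36 in neutrophils. Parp12 was at 137 ± 30.9, 29.5 ± 3.31, 51.6 ± 6.26 and 5.95 ± 2.43 CPM in the same order. The 12 sums share mice and the low neutrophil scale, so the likeness is a description.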

How the data were processed

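Single-cell 3' RNA libraries were made from sorted brain myeloid cells of 3 mice with each of 2 kits. Per the labels and the study's methods, the authors demultiplexed with bcl2fastq and counted with Cell Ranger 5.0.0 against mm10; the deposited values are whole UMI counts of barcodes called as cells, with no doublets removed. No doublet caller was run here; caps on other classes' markers leave out cells with both. Libraries held 6275898 to 18872816 UMIs; median UMIs per cell were 3393 to 3717 in other microglia and 4435 to 6067 in neutrophils, which limits rare genes.

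Counts were summed per mouse and class, or per library, and tested with edgeR 4.0.16 in R 4.3.3 (TMM, low-count filter, quasi-likelihood, Benjamini-Hochberg adjustment); SE is the fold change over the square root of F. Gate genes stayed out of call counts. Class comparisons had the mouse as a block; the kit comparison did not, and its block is an alternative. Both libraries of a mouse come from 1 animal, and their residuals correlated at 0.354, 0.527 and 0.177 over 500 genes. Kit p-values therefore rest on libraries that share mice, and inhibitor p-values rest on 1 sum per mouse. Alternatives were DESeq2 1.42.0, its size factors, other filters, gates and sums, thinning and left-out replicates; library totals alone and a relaxed border macrophage gate were added after seeing the data. Scripts were tested on simulated data. Members, gates and lists were chosen with earlier results of these data known. The text names all members, up to 4 called genes of largest change per list and comparison, and the 5 genes most like the members. Psmb6, Psmb7, Psmb10 and the uncalled other loading genes are named as list members, and Cd74, Ifit3 and Isg15 as markers. Some listed genes are not reported here.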

Additional observations from a re-analysis of the deposited data

How the results depend on the processing

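The comparison of interferon-positive with other microglia called 8 or 9 members in every alternative run, Tapbp and, after thinning, Tap2 being the ones lost. Its gene count of 253 was 155 with cells thinned to 2000 UMIs, where fewer genes were tested, and 186 to 254 with 1 replicate left out. Between border macrophages and other microglia, leaving out 1 replicate gave 705 to 1185 genes against 1228. Tap1 and Tapbp were also called there with at least 500 genes per cell (1.25 and 0.63) and with the relaxed border macrophage gate (1.16 and 0.68), 8 members in each. Neutrophils against other microglia gave 3073 genes with sums per library against 4817, with fewer genes tested. Its 2 called members became 5 with at least 500 genes per cell, 8 with library totals alone, and 2 to 4 without 1 replicate. Border macrophages against neutrophils gave 2176 to 3091 genes and 2 to 4 members without 1 replicate, and 8 members with library totals alone, against 3275 and 4. With library totals alone, these log2 fold changes of neutrophils against other microglia turned negative: Tapbp -1.18, H2-K1 -1.33, Psmb9 -0.20, Tap1 -0.93, Psmb8 -1.20, Tap2 -1.05 and H2-T23 -0.98. In border macrophages against neutrophils Psmb9 became 0.87 and H2-D1 0.98. The difference between both scalings is the shift of all genes given with the results.

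The kit comparison called 543 genes with the replicate block that pairs the libraries of a mouse, against 358, and 0 to 1 members without 1 library. The inhibitor comparison called 117 genes, and 16 with DESeq2, 46 with at least 500 genes per cell, 3 with V3.0 libraries alone and 72 with V3.1 libraries alone; the cause was not tested, and no member was called in any of them. Class comparisons without the block called 9, 6, 2 and 3 members, H2-T23 in border macrophages against neutrophils (0.57) being lost. Over 678 values of members under alternatives, 28 changed sign: the 9 above, and 19 that were called under neither setting. Depth limits Nlrc5 in all classes, and Tap1 and Tap2 in border macrophages.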
